A study of Homo sapiens with 6 samples.

Results

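The aminoacyl-tRNA synthetases and the scaffold proteins that hold part of them together were followed in HCT116 cells transfected with a YY2 overexpression vector. The genes were taken from the deposited table by their symbols, namely 20 cytosolic synthetase genes, 16 mitochondrial synthetase genes (symbols ending in 2) and 3 scaffold genes of the multisynthetase complex. All 39 were found under these symbols among the 50868 genes of the table, and all 39 passed the filter on low values, so none had to be left out.

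Aminoacyl-tRNA synthetases join each amino acid to its tRNA and thereby set the meaning of the genetic code. Cytosolic and mitochondrial translation are mostly served by separate nuclear genes, while GARS and KARS encode the enzyme of both compartments. In the cytosol, several synthetases are bound in the multisynthetase complex, which is built on AIMP1, AIMP2 and EEF1E1. Many cytosolic synthetase genes are known targets of ATF4, a transcription factor made when uncharged tRNA activates the kinase GCN2, and ATF4 binds C/EBP-ATF response elements. YY2 is a zinc finger transcription factor that can activate or repress genes and shares its DNA motif with YY1.

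RNA-Seq had been performed on 3 samples of HCT116, a human colorectal cancer cell line, with the empty vector pcDNA3.1(+) (pcCon) and 3 samples with the YY2 vector (pcYY2). The transfection was transient, the methods describe no selection of transfected cells for overexpression, and the labels do not say whether the samples of a group were separate cultures, so that p values measure only the spread between these samples. In bulk RNA, fewer cells with a transcript and less of it per cell cannot be told apart. The total count ranged from 15158360 to 29572882. FPKM stands for the reads of a gene scaled to its length and to the total count of its library. By this measure YY2 rose from 2.16 ± 0.397 to 11.2 ± 0.333 (SD, n = 3, log2 fold change 2.39, adjusted p = 0.00107 in edgeR), where reads of the plasmid and of the locus cannot be told apart. All 6 epithelial markers examined were expressed. Their summed FPKM was 303 to 316 in pcCon and 395 to 430 in pcYY2, with KRT8 and KRT19 higher, while 7 of 9 fibroblast, leukocyte and endothelial markers had a mean FPKM under 0.1, with COL1A2 and DCN at 0 (summed FPKM 2.40 to 2.64 in pcCon and 2.96 to 3.68 in pcYY2, of which COL1A1 made up most). The part of the keratin difference in the results below was not tested.

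As FPKM, which is scaled to gene length, the cytosolic genes were expressed at a higher level than the mitochondrial genes. In pcCon the median of the gene means was 31.3 for the 20 cytosolic genes, 6.40 for the 16 mitochondrial genes and 13.3 for the 3 scaffold genes, against 4.93 over all 12015 genes tested. EPRS, the bifunctional enzyme for glutamate and proline, had the highest level of the cytosolic genes with 68.1 ± 1.202 (SD, n = 3). WARS, the tryptophan enzyme, had the lowest with 5.35 ± 0.283 (SD, n = 3). Among the mitochondrial genes, IARS2, for isoleucine, stood far above the rest with 50.1 ± 1.49 (SD, n = 3), and the next, RARS2, for arginine, had 15.5 ± 0.801. CARS2, for cysteine, was lowest with 1.67 ± 0.0589 (SD, n = 3). Between 1162 and 12698 reads per sample lay behind the cytosolic values, between 160 and 6427 behind the mitochondrial and between 499 and 1743 behind the scaffold values. The order of the genes holds for FPKM only, since it depends on the gene lengths used. By reads, CARS (1162 to 2344) was below WARS (1524 to 3451), and IARS (6595 to 12698) was above EPRS (5484 to 9772). CARS2 had 583 to 1149 reads, and FARS2 had 160 to 402.

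**Figure D1:**
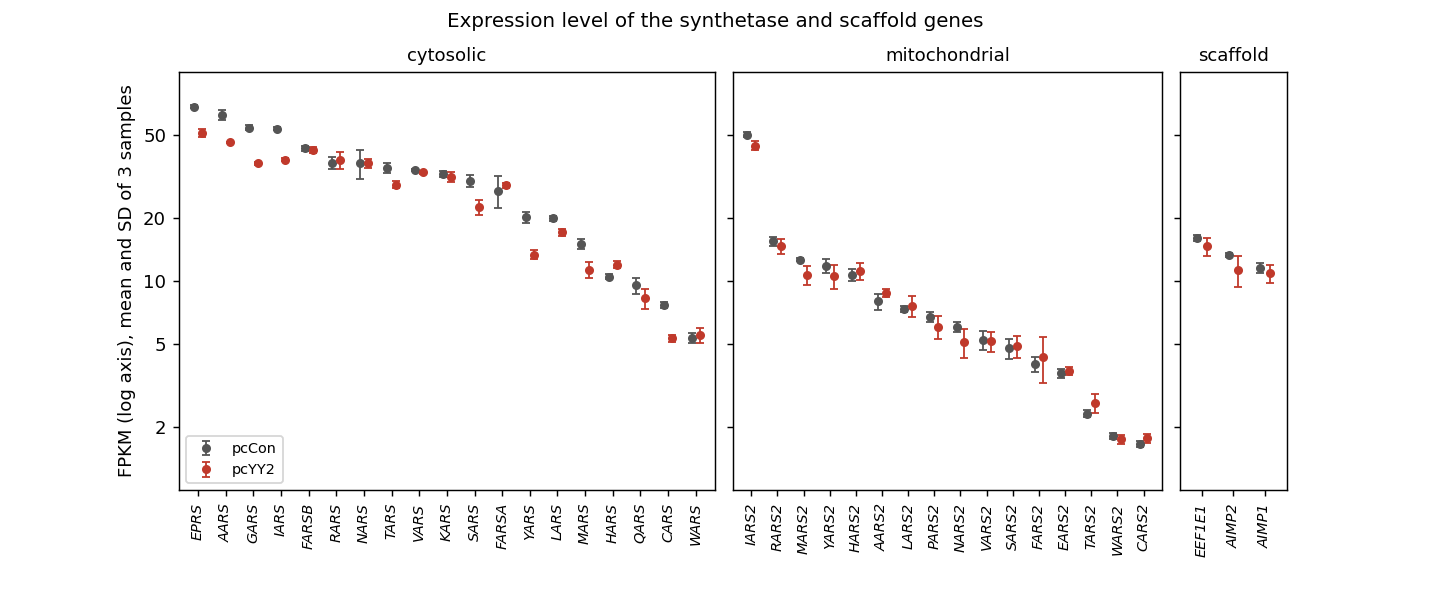
Expression level of each gene as FPKM on a log axis, with the mean and SD of the 3 samples of pcCon (grey) and pcYY2 (red), ordered by the pcCon mean within each family, for 19 of the cytosolic, 16 mitochondrial and 3 scaffold genes. The cytosolic genes range from 5.35 to 68.1 in pcCon, and IARS2 at 50.1 stands above the other mitochondrial genes.

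In pcYY2, 10 of the 20 cytosolic synthetase genes fell, namely YARS, GARS, CARS, IARS, AARS, SARS, EPRS, MARS, TARS and LARS, and none of the 20 rose at an adjusted p of 0.05 or less (quasi-likelihood test in edgeR, adjusted by Benjamini-Hochberg over all genes tested). Their pcYY2 means were 66.3% to 85.6% of the pcCon means. Of the 12015 genes tested, 4.85% were lower and 4.52% were higher. None of the 16 mitochondrial genes and none of the 3 scaffold genes passed the test in either direction. The median log2 fold change, always pcYY2 against pcCon, was -0.20 over the cytosolic genes, 0.02 over the mitochondrial genes and -0.12 over the scaffold genes, beside 0.00197 over all genes tested. Whether the cytosolic and mitochondrial genes differ as groups was not tested, since genes are not replicates.

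**Figure D2:**
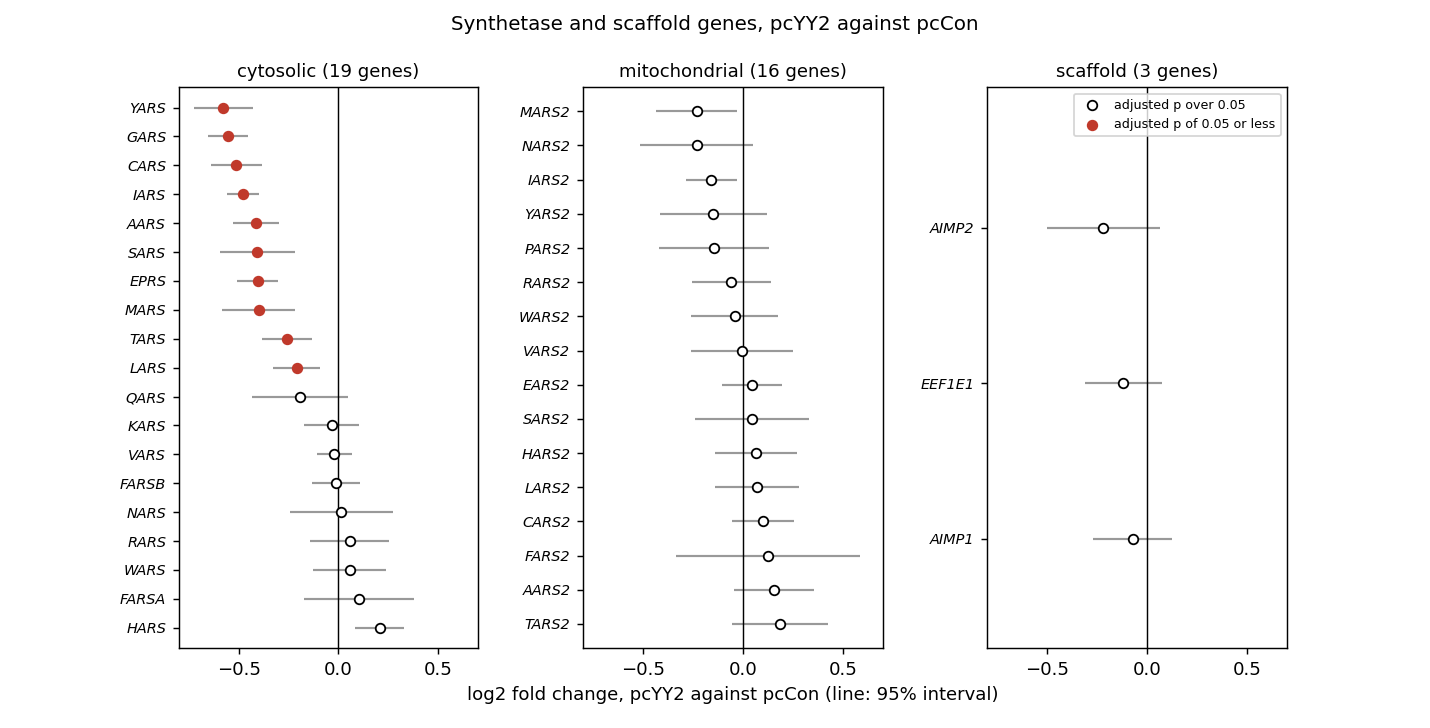
Log2 fold change of each gene, pcYY2 against pcCon, with its 95% interval from edgeR, by family, for 19 of the cytosolic, 16 mitochondrial and 3 scaffold genes. Filled red points have an adjusted p of 0.05 or less, and all 10 of them are cytosolic genes to the left of 0.

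The same was seen sample by sample. Relative to the pcCon mean of each gene, the median log2 level of the 20 cytosolic genes was -0.01, -0.01 and 0.01 in the pcCon samples and -0.16, -0.15 and -0.27 in the pcYY2 samples. The median of the 16 mitochondrial genes was 0.02, -0.03 and 0.00470 in pcCon and -0.11, 0.01 and -0.01 in pcYY2. The 2 groups were thus apart for the cytosolic median and overlapped for the mitochondrial median. The summed FPKM of the cytosolic genes was 619, 619 and 634 in pcCon and 534, 532 and 520 in pcYY2, and that of the mitochondrial genes was 153, 152 and 152 against 137, 148 and 144. The mitochondrial sum was therefore lower in every pcYY2 sample as well, with IARS2 as its largest term.

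The largest differences were found among enzymes that act outside the multisynthetase complex. YARS (ENSG00000134684, chr1:32775237-32818153 on GRCh38), the tyrosine enzyme, had an FPKM of 21.5, 19.3 and 19.7 in the pcCon samples and 12.9, 14.1 and 13.2 in the pcYY2 samples. It fell to 66.3% (log2 fold change -0.58, standard error 0.0628, adjusted p = 0.00577). GARS (ENSG00000106105, chr7:30594681-30634033), the glycine enzyme of both compartments, had 53.4, 53.2 and 55.8 in the pcCon samples and 35.9, 37.2 and 36.5 in the pcYY2 samples. The pcYY2 samples of GARS lay close together and below every pcCon sample, at 67.5% on average (log2 fold change -0.55, standard error 0.0418, adjusted p = 0.00182). CARS (ENSG00000110619, chr11:3000922-3057613), which charges cysteine and is among the least expressed cytosolic members, had 7.44, 7.77 and 7.88 in the pcCon samples and 5.13, 5.36 and 5.54 in the pcYY2 samples, and fell to 69.4% (log2 fold change -0.51, standard error 0.0541, adjusted p = 0.00552).

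The enzyme for alanine, AARS (ENSG00000090861, chr16:70252295-70289543), had an FPKM of 58.4, 64.6 and 63.2 in the pcCon samples and 45.9, 46.4 and 46.2 in the pcYY2 samples. All pcYY2 samples were nearly equal, whereas the pcCon samples spread more widely above them (log2 fold change -0.41, standard error 0.0484, adjusted p = 0.00675). SARS (ENSG00000031698, chr1:109213918-109238169), for serine, had 28.6, 29.5 and 32.4 in the pcCon samples and 21.4, 24.6 and 21.5 in the pcYY2 samples (log2 fold change -0.41, standard error 0.0795, adjusted p = 0.0284). TARS (ENSG00000113407, chr5:33440696-33469539), for threonine, had 33.2, 34.4 and 36.9 in the pcCon samples and 29.8, 27.7 and 29.2 in the pcYY2 samples (log2 fold change -0.26, standard error 0.0526, adjusted p = 0.0322). In both genes every pcYY2 sample was below every pcCon sample.

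Of the 8 synthetase genes of the multisynthetase complex, 4 fell, and of the 12 outside it 6 fell. IARS (ENSG00000196305, chr9:92210207-92293756), the isoleucine enzyme, had an FPKM of 52.6, 53.7 and 54.1 in the pcCon samples and 38.4, 38.3 and 37.5 in the pcYY2 samples. It had the smallest p of all 39 genes (log2 fold change -0.48, standard error 0.0338, adjusted p = 0.00157) and the samples of each group lay close together. EPRS (ENSG00000136628, chr1:219968601-220046658) had 66.7, 69.1 and 68.4 in the pcCon samples and 53.6, 49.5 and 49.7 in the pcYY2 samples (log2 fold change -0.40, standard error 0.0433, adjusted p = 0.00557). The cytosolic synthetase gene with the highest FPKM was thus among those that fell, to 74.9%. MARS (ENSG00000166986, chr12:57475445-57517569), for methionine, had 15.8, 15.1 and 14.3 in the pcCon samples and 10.7, 12.5 and 10.7 in the pcYY2 samples (log2 fold change -0.40, standard error 0.0772, adjusted p = 0.0273). LARS (ENSG00000133706, chr5:146113038-146182660), for leucine, which also acts as a leucine sensor for mTORC1, had 19.3, 20.4 and 20.2 in the pcCon samples and 17.6, 17.4 and 16.3 in the pcYY2 samples. LARS showed the smallest difference of the 10 and the adjusted p nearest to the threshold (log2 fold change -0.21, standard error 0.0496, adjusted p = 0.0462). In all 10 genes that fell, the pcYY2 samples lay wholly below the pcCon samples, which was also the case for 19.9% of all genes tested. An exact permutation test of 3 against 3 samples cannot give a p below 0.1.

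**Figure D3:**
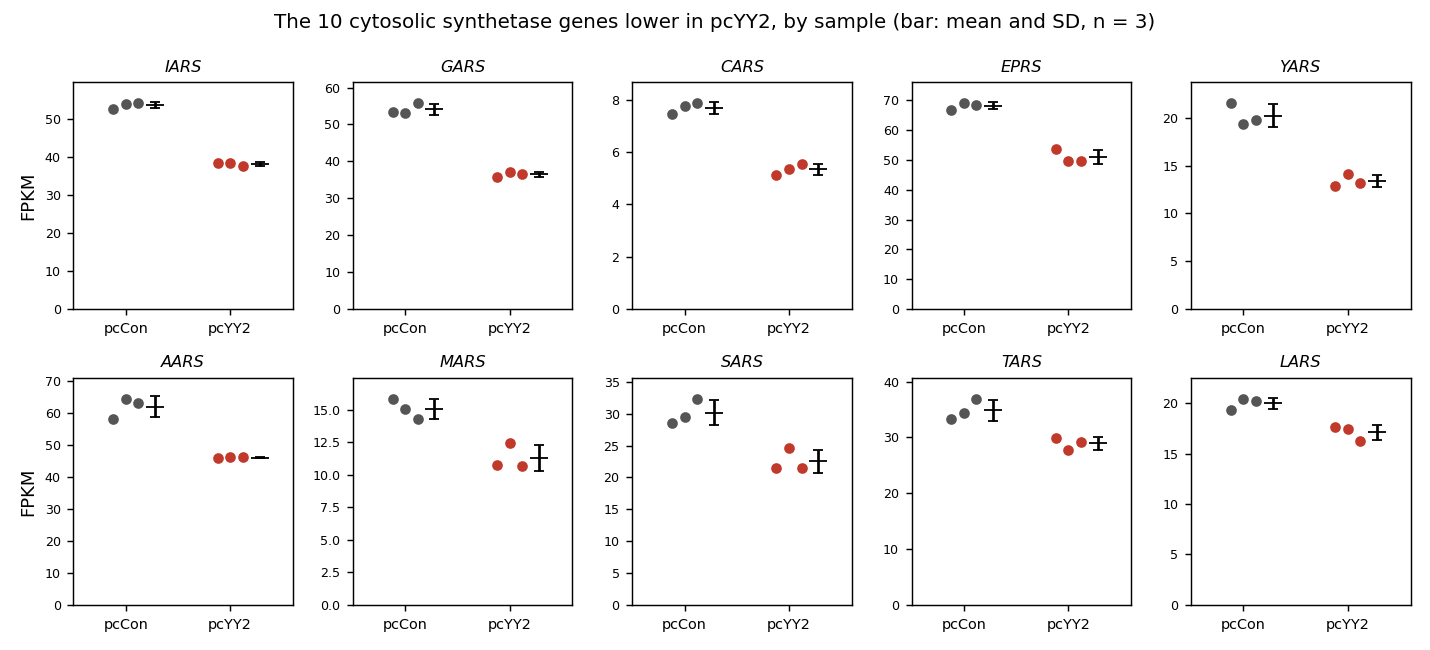
FPKM of the 10 cytosolic synthetase genes that fell, for each pcCon (grey) and pcYY2 (red) sample, with the mean and SD of the 3 samples beside them and each axis starting at 0. No pcYY2 sample reaches a pcCon sample in any of the 10 genes.

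By structural class, 5 of the 9 cytosolic genes that encode class I enzymes only (CARS, IARS, LARS, MARS and YARS) and 4 of the 10 for class II enzymes (AARS, GARS, SARS and TARS) fell. EPRS joins a class I and a class II domain. AARS, CARS, GARS and IARS passed the test in all 15 alternative fits, and EPRS and YARS in 14. The calls of LARS, TARS, MARS and SARS were less stable, although each kept a negative log2 fold change in all 15. With 1 sample left out, LARS and TARS no longer passed in any of the 6 fits and MARS and SARS in 5 of them, so that 6 genes passed without pcCon sample 1, 2 or 3 or pcYY2 sample 1 or 3, and 8 without pcYY2 sample 2. With all 6 samples, LARS was also lost at a mean FPKM of at least 0.1 (adjusted p = 0.0793) and without a filter (adjusted p = 0.0890), and TARS at a mean FPKM of at least 0.1 (adjusted p = 0.0508). The log2 fold change of LARS lay between -0.24 and -0.17 in these fits. YARS shares 396 exonic bases (4.05% of its exons) with S100PBP on the opposite strand, which was itself lower (log2 fold change -0.83, adjusted p = 0.00587). MARS shares 355 exonic bases (5.05%) with DDIT3 (log2 fold change -0.14, adjusted p = 0.583). Whether the counting used the strand is not given in the sources used here. Of the genes that fell, AARS, CARS and GARS have annotated pseudogenes, and reads shared with them cannot be told apart.

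The other 10 cytosolic genes did not pass. HARS, the histidine enzyme, had an FPKM of 10.5, 10.7 and 10.2 in the pcCon samples and 11.6, 11.9 and 12.5 in the pcYY2 samples. It was the only cytosolic gene whose pcYY2 samples were all above the pcCon samples, which held for 15.9% of all genes tested, and its adjusted p lay just over the threshold (log2 fold change 0.21, standard error 0.051, adjusted p = 0.0515). DESeq2 and edgeR's robust fit placed it under the threshold (adjusted p = 0.0389 and 0.0432). HARS shares 1090 exonic bases (7.70% of its exons) with WDR55 on the opposite strand (log2 fold change 0.08), and fewer with DND1 and HARS2. QARS, the glutamine enzyme, had 10.1, 10 and 8.59 in the pcCon samples and 8.64, 8.94 and 7.21 in the pcYY2 samples, and the groups overlapped (log2 fold change -0.19, standard error 0.101, adjusted p = 0.254). For VARS, FARSB and KARS, for valine, phenylalanine and lysine, the pcYY2 means were 96.8% to 98.2% of the pcCon means. Their intervals were narrow, from -0.11 to 0.07 on the log2 scale for VARS to -0.13 to 0.11 for FARSB and -0.17 to 0.10 for KARS. RARS and WARS had intervals from -0.14 to 0.25 and from -0.13 to 0.24. FARSA (-0.17 to 0.38) and NARS (-0.24 to 0.27), for asparagine, were measured less precisely, since their pcCon samples ranged from 22.3 to 31.6 and from 32.6 to 43.2 FPKM. FARSA and FARSB encode the subunits of a common enzyme, and neither passed the test.

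Promoter sequences from RefSeq (GRCh38.p14, 250 bases before to 50 after each annotated start) were found for 33 of the 39 genes, and LARS, VARS, YARS, AARS2 and VARS2 are among those without a window. They were searched on both strands for TGATGNAA, the core of the C/EBP-ATF response element, which 3.62% of all 35116 windows hold. It was found in 6 of the 8 cytosolic genes that fell and have a window (AARS, CARS, GARS, IARS, MARS and TARS), in 1 of the 8 with a window that did not pass (NARS), in 1 of 14 mitochondrial genes (YARS2) and in 0 of 3 scaffold genes. Of the 8 cytosolic genes that fell, 4 have more than 1 window, as does 1 of the other 8. EPRS and SARS fell and have no such match in their windows. The matches in the cytosolic genes are shown so that the genes that fell can be compared letter by letter, and NARS, chosen after its values were seen, is set beside them. Each line gives 30 bases in the direction of the gene, with the matched bases in capitals.
AARS, chr16:70289675-70289704, minus strand: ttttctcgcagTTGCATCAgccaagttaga
CARS, chr11:3057407-3057436, minus strand: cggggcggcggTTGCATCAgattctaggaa
GARS, chr7:30594834-30594863, plus strand: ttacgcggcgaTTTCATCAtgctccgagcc
IARS, chr9:92293692-92293721, minus strand: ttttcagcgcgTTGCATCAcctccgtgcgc
MARS, chr12:57488053-57488082, plus strand: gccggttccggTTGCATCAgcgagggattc
TARS, chr5:33440956-33440985, plus strand: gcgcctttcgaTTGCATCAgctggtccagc
NARS, chr18:57621804-57621833, minus strand: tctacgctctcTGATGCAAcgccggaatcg

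All 6 genes that fell carry the element on the strand opposite to the gene, and 5 of them, all but GARS, share the same 8 bases TTGCATCA. Counted to the annotated start, the match begins at -2 in CARS, -4 in MARS, -13 in IARS, -33 in GARS and -187 in AARS, and at 3 in TARS. In NARS, which did not pass the test, it is on the strand of the gene and begins at 15. A match of letters is a description and not a site of binding.

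The mitochondrial synthetase genes gave 0 calls of 16 in edgeR, in its robust fit, in DESeq2 and in limma, and 2 genes at an unadjusted p under 0.05, which 28.9% of all genes tested had. These were IARS2 and MARS2. IARS2 had an FPKM of 48.5, 50.2 and 51.5 in the pcCon samples and 44.1, 46.7 and 42.4 in the pcYY2 samples (log2 fold change -0.16, standard error 0.0541, adjusted p = 0.109). MARS2, for methionine, had 12.8, 12.5 and 12.8 in the pcCon samples and 11.7, 9.51 and 11 in the pcYY2 samples (log2 fold change -0.23, standard error 0.0851, adjusted p = 0.13). In both the pcYY2 samples were all below the pcCon samples, with means at 88.7% and 84.5%, and they were the only 2 of the 16 without overlap. Of the other 14, NARS2 (asparagine), YARS2 (tyrosine), PARS2 (proline), RARS2 (arginine), WARS2 (tryptophan) and VARS2 (valine) had log2 fold changes below 0, from -0.23 to -0.00417. EARS2 (glutamate), SARS2 (serine), HARS2 (histidine), LARS2 (leucine), CARS2 (cysteine), FARS2 (phenylalanine), AARS2 (alanine) and TARS2 (threonine) had values above 0, from 0.05 to 0.19. The family was thus evenly divided, with 8 genes on either side of 0. The least certain was FARS2, from 160 to 402 reads per sample, with an interval of -0.33 to 0.59, and the narrowest after IARS2 were those of EARS2 (-0.10 to 0.20) and CARS2 (-0.06 to 0.26).

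For each amino acid with a gene in both families, the FPKM of the cytosolic gene was divided by that of the mitochondrial gene in the same sample. The size of such a ratio depends on the gene lengths used for FPKM, whereas its change between the groups does not. The FPKM ratio of AARS to AARS2 was 7.78 in pcCon (log2 ratio 2.96 ± 0.140, SD, n = 3) and 5.25 in pcYY2 (2.39 ± 0.0543). For cysteine the ratio was 4.61 in pcCon (log2 ratio 2.21 ± 0.0880) and 3.01 in pcYY2 (1.59 ± 0.116). CARS2, the mitochondrial gene of this pair, had a log2 fold change of 0.10 while CARS fell. For threonine, TARS over TARS2 moved from 14.97 to 11.1, for serine, SARS over SARS2 from 6.33 to 4.63, and for glutamate, EPRS over EARS2 from 18.8 to 13.7. In these 5 pairs the ratios of the pcYY2 samples lay below those of all pcCon samples. The share of other gene pairs of which this holds was not computed, so the lack of overlap is a description only. SARS2 shares 1492 exonic bases (48.2% of its exons) with ENSG00000269547 on the same strand, and VARS2 shares 4073 (63.0%) with ENSG00000288473. How reads in these bases were counted is not given in the sources used here.

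Isoleucine and tyrosine differed in that the mitochondrial gene also had a value below 0. The FPKM ratio of IARS to IARS2 moved from 1.07 to 0.857 and that of YARS to YARS2 from 1.71 to 1.27. The groups did not overlap in either. The value below 1 for isoleucine rests on the lengths used, since IARS had 6595 to 12698 reads per sample and IARS2 3139 to 6427. The ratio of LARS to LARS2 moved from 2.72 to 2.25, also without overlap. In contrast, the ratios overlapped for methionine, where MARS over MARS2 was 1.19 in pcCon and 1.06 in pcYY2, and for proline, where EPRS over PARS2 was 10.1 and 8.49. They overlapped too in the pairs whose cytosolic gene did not pass, with FARSA and FARSB each set against FARS2, and for NARS, RARS and VARS among them the ratios moved from 5.98 to 7.19, from 2.37 to 2.57 and from 6.51 to 6.45. With 3 samples against 3, an exact permutation test of these ratios could give no p below 0.1, and the 17 pairs were not tested.

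The enzymes that serve both compartments from 1 gene did not go together. GARS fell to 67.5%, whereas KARS had an FPKM of 33.6, 31.5 and 32.2 in the pcCon samples and 30.1, 33.4 and 30.7 in the pcYY2 samples (log2 fold change -0.03, standard error 0.0582, adjusted p = 0.75), with overlapping groups. Mitochondria make glutaminyl-tRNA by a different route, in which EARS2 charges the tRNA with glutamate and an amidotransferase made of QRSL1, GATB and GATC converts it. EARS2 had an FPKM of 3.78, 3.44 and 3.66 in the pcCon samples and 3.81, 3.53 and 3.8 in the pcYY2 samples and did not pass (log2 fold change 0.05, standard error 0.0633, adjusted p = 0.667), nor did any subunit of the amidotransferase. All pcYY2 samples were below pcCon for GATC (log2 fold change -0.21, adjusted p = 0.0738 in edgeR) and QRSL1 (-0.12). For GATB (0.10) they were all above.

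The scaffold genes gave 0 calls of 3 in edgeR, DESeq2 and limma, and 0 at an unadjusted p under 0.05. AIMP2 (ENSG00000106305, chr7:6009245-6023834) had an FPKM of 13.1, 13.5 and 13.4 in the pcCon samples and 9.87, 13.4 and 10.6 in the pcYY2 samples. The samples pcYY2 1 and 3 were below pcCon, and pcYY2 2 was level with it (log2 fold change -0.22, standard error 0.119, adjusted p = 0.271). Without pcYY2 sample 2, AIMP2 passed (log2 fold change -0.37, adjusted p = 0.0438). AIMP2 shares 532 exonic bases, 29.1% of its exons, with EIF2AK1 on the opposite strand (log2 fold change -0.11, adjusted p = 0.124). EEF1E1 (ENSG00000124802, chr6:8073360-8102578), also known as AIMP3, had 15.5, 16.4 and 16.2 in the pcCon samples and 16.3, 13.6 and 14.1 in the pcYY2 samples (log2 fold change -0.12, standard error 0.0811, adjusted p = 0.374). AIMP1 (ENSG00000164022, chr4:106315544-106349226) had 10.8, 12 and 11.9 in the pcCon samples and 11.3, 9.7 and 11.7 in the pcYY2 samples (log2 fold change -0.07, standard error 0.0834, adjusted p = 0.61). All 3 values were below 0, and the groups overlapped in each.

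Around the synthetases, the other steps of tRNA charging and use were examined with 7 lists, of which 147 genes were tested. Of these, 0 were lower and 4 were higher, beside 4.85% lower and 4.52% higher of all genes tested. With 1 sample left out, 0 genes passed without pcCon sample 1 or 2, 1 without pcCon sample 3 or pcYY2 sample 2 or 3, and 7 without pcYY2 sample 1. EEF1D, a subunit of the exchange factor that reloads the elongation factor with GTP, rose from 7.41 ± 0.314 to 8.45 ± 0.164 (SD, n = 3, log2 fold change 0.21, adjusted p = 0.0457), as 1 of 7 cytosolic elongation factors. DESeq2 also called it, whereas limma called 0 of the 7. Of 22 genes of RNA polymerase III and its factors, which transcribe the tRNA genes, 3 rose. These were GTF3C6 (log2 fold change 0.46, adjusted p = 0.0125) and GTF3C5 (0.30, adjusted p = 0.0272), subunits of the factor that binds tRNA promoters, and MAF1, the repressor of the polymerase (0.26, adjusted p = 0.049). The median log2 fold change of these 22 genes was 0.05.

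No gene passed in edgeR among 23 for tRNA maturation and export (median -0.03, 3 at an unadjusted p under 0.05, and 0 in DESeq2 and limma), 4 mitochondrial elongation factors (median 0.07, and 0 in each of these tests) and 6 genes of the GCN2 branch (median -0.03, 1 unadjusted, and 0 in DESeq2 and limma). Among 8 further enzymes that act on aminoacyl-tRNA the median was -0.04 and 3 had an unadjusted p under 0.05, where DESeq2 and edgeR's robust fit called DTD2 lower, which removes wrongly charged residues, and limma called DTD1 and DTD2. The 77 mitochondrial ribosomal protein genes had a median of 0.08 and 14 at an unadjusted p under 0.05. These counts stand beside the 28.9% of all genes tested that had such a p. For these DESeq2 made 2 calls, MRPL51 (higher) and MRPS27 (lower), edgeR's robust fit 1, MRPS27, and limma 0. MRPL51, MRPS27 and the DTD genes were named after their values were seen.

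The list of ATF4-linked amino acid response genes other than synthetases moved most. Of 29 tested, 13 fell and 0 rose, beside 4.85% lower and 4.52% higher of all genes tested, with a median log2 fold change of -0.31. DESeq2 and limma gave 0 higher as well. At an unadjusted p under 0.05 in edgeR there were 22 genes in either direction, beside 28.9% of all genes tested. Among these 22, SLC38A2 (0.16) and PPP1R15A (0.28), named after their values were seen, were higher. The 5 with the smallest p were ASNS, which makes asparagine (-1.73), PCK2, mitochondrial phosphoenolpyruvate carboxykinase (-1.03), PSAT1 (-0.80) and PHGDH (-1.19) of serine synthesis and the cystine antiporter subunit SLC7A11 (-1.05). Each of these values was larger in size than the log2 fold change of YARS, the largest among the synthetase genes, at -0.58. Without 1 sample, the number that fell was 7, 7 and 6 for pcCon samples 1, 2 and 3 and 11, 12 and 7 for pcYY2 samples 1, 2 and 3. ATF4 itself, named after its value was seen, did not pass, at an FPKM of 121 ± 1.98 against 109 ± 5.81 with YY2 (SD, n = 3, adjusted p = 0.125). Its log2 fold change was -0.14, with an interval of -0.25 to -0.02. All pcYY2 samples of ATF4 were below the pcCon samples, which held for 19.9% of all genes tested. Of the 13 genes that fell, 11 had promoter windows and 3 of these (ASNS, SLC3A2 and SLC7A1) held TGATGNAA, as did 3 of the 12 windowed genes of the list that did not pass (CEBPG, CHAC1 and SLC1A4).

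The promoter windows were also searched for the consensus shared by YY2 and YY1, CGCCATNTT, which 3.19% of all windows hold, and for its shorter form GCCATNTT, which every match of the first also holds and which 6.58% of all windows have. Neither was found in the 8 windowed cytosolic genes that fell, nor in the 23 windowed ATF4-linked genes tested, whether they fell or not. The windows do not reach as far upstream as the YY2 site that the paper proposes in the SLC7A11 promoter. Sites outside the windows, or with other letters, were not searched. CGCCATNTT was found in 3 of the 8 windowed cytosolic genes that did not pass (FARSA, KARS and NARS), in 3 of 14 mitochondrial genes (LARS2, WARS2 and YARS2) and in 1 of 3 scaffold genes (EEF1E1). GCCATNTT was found in addition in FARS2, SARS2 and TARS2. None of these 10 genes passed the test. The longer matches are shown because they are the motif of the transfected factor and were chosen after the values were seen, in 29 bases each in the direction of the gene, with the match in capitals.
FARSA, chr19:12933770-12933798, minus strand: agacacattcAAGATGGCGgtacacactc
KARS, chr16:75647624-75647652, minus strand: gccctccgggAAGATGGCGgccgtgcagg
NARS, chr18:57621900-57621928, minus strand: gccctcaccaAAGATGGCGgccccggcgc
LARS2, chr3:45388577-45388605, plus strand: ctgttttgacAACATGGCGgcgcccatgg
WARS2, chr1:119140629-119140657, minus strand: cgcccttctcAAGATGGCGctgcactcaa
YARS2, chr12:32755859-32755887, minus strand: tgccgctaccAAGATGGCGgcgcccatct
EEF1E1, chr6:8102506-8102534, minus strand: ctacggccggAAGATGGCGgcggccgcag

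All 7 matches are on the strand opposite to the gene. They begin at -77 in FARSA and -82 in NARS, and between 12 and 26 after the start in KARS, LARS2, YARS2, EEF1E1 and WARS2, counted in WARS2 from the earlier of its annotated starts. The letters say nothing of whether YY2 was bound, which was not measured in these samples.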

How the data were processed

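RNA-Seq libraries of polyA RNA from 6 samples had been filtered and mapped by the authors to GRCh38 with Tophat, and the paper names Cufflinks for FPKM. The processing notes of the submitters name Bowtie2, HTSeq and TopHat, so that the tool behind the deposited FPKM is not settled here. The strand setting of the counting is not given in the sources used here. The deposited table holds counts, as whole reads per gene without normalization, and FPKM, which the authors give relative to gene length and library total. FPKM was checked to follow the count with a largest deviation of 0.000858% over 10859 genes with at least 100 counts. A floor of 3 counts is 0.101 to 0.198 CPM, for counting error only. Samples and groups were taken from the labels.

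Genes were kept at a mean FPKM over the samples of 1 or more, and the counts of these 12015 genes were tested with edgeR 4.0.16 (R 4.3.3, TMM, quasi-likelihood F test, group as the only term) with Benjamini-Hochberg adjustment over all of them, at 0.05 or less. Standard errors are the log2 fold change over the square root of F, and intervals are 95%. The alternatives used limma 3.58.1, DESeq2 1.42.0 and other filters, scalings and samples. Motifs and overlaps were read with Python 3.11.15 from RefSeq windows and GENCODE 44. By rule, values in each sample were given for members that passed, the 2 with the smallest p among the others of each family and all scaffold genes, the members with the highest and lowest level were named, and at most 5 called genes of each other list. Values of other members, namely intervals, and those of KARS and EARS2 by sample, were added after they were seen. A cytosolic member that did not pass is counted but not reported here by name. The members and lists were chosen with earlier results of these data known.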

Additional observations from a re-analysis of the deposited data

How the results depend on the processing

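The 10 cytosolic genes that fell kept their direction in all 15 alternative fits. Under other filters, scalings and tools 8 to 10 of them passed. The number that fell was 6 to 8 with a sample left out, where fewer samples were fitted, and in the same fits the median log2 fold change of the cytosolic genes was -0.23 to -0.14 and that of the mitochondrial genes -0.0331 to 0.0662. A cytosolic gene that rose was found with DESeq2 (1), edgeR's robust fit (1) and at an unadjusted p under 0.05 (1), in each case HARS. At an unadjusted p under 0.05, 2 mitochondrial genes were lower. In either direction 22 ATF4-linked genes passed and 31 genes of the other lists, beside 28.9% of all genes tested. Scaffold genes numbered 0 to 1, ATF4-linked genes 6 to 12 and genes of the other lists 0 to 7 with a sample left out. The other lists had 2 calls without a filter and 7 with DESeq2.

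With the replicate block, 4 cytosolic genes (AARS, CARS, GARS and IARS), 6 ATF4-linked genes and 0 genes of the other lists passed, and EPRS and YARS were just over the threshold (adjusted p = 0.0532 each). The labels number the samples without saying that a number marks a shared culture or day, and deviations from the group means correlated at -0.0318 to -0.0175 across genes between samples with the same number, against -0.0310 to 0.0569 between other pairs, so that the numbers were not taken as pairs. The lowest count of a member was 160 reads, in FARS2, which also had the widest interval.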
